A study of Mus musculus with 8 samples.

Results

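The TGF-beta and BMP signaling genes described here are 36 named genes of 33641 gene symbols measured by RNA-seq in tumor endothelial cells (TECs) of the mouse lung: 9 ligand genes, 10 type I and type II receptor genes, 3 co-receptor or decoy genes, 8 Smad genes, 3 genes of ubiquitin ligases and ligand storage, and the 3 target genes Id1, Id2 and Id3. The members are listed by gene symbol and pathway role. Tumors were grown from Lewis lung carcinoma (LLC) cells, a mouse lung cancer line labelled with mCherry and injected into the left lung, and CD45-CD31+ cells were collected by FACS from tumors dissected at day 21. The 4 endFoxf1+/- mice were Pdgfb-iCreER; Foxf1 fl/+ animals, in which tamoxifen removes exon 1 of 1 Foxf1 allele in cells that express the Pdgfb-driven Cre. The 4 other mice are labelled only as control. The study names littermates with Foxf1 fl/+ or Pdgfb-Cre alone, and elsewhere wild-type C57Bl/6 mice, as its controls, so the exact genotype behind each control library is not given in the sources used here. Mice of the study were 6 to 8 weeks old at tamoxifen and at tumor cell injection, and the study describes tamoxifen-treated control mice, although the labels do not give the treatment per library. The control libraries are called C1 to C4 and those of endFoxf1+/- mice H1 to H4.

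Ligands of this superfamily bind a pair of type I and type II receptor kinases, which phosphorylate SMAD proteins. In endothelium the type I receptor ACVRL1 (ALK1), the type II receptor BMPR2 and the co-receptor endoglin (ENG) carry the signals of BMP9 and BMP10 to SMAD1, SMAD5 and SMAD9, and ID1 and ID3 are classical targets of these SMADs. The other branch runs from TGF-beta through TGFBR2 and TGFBR1 to SMAD2 and SMAD3, with TGFBR3 (betaglycan) as its co-receptor. SMAD4 is shared by both branches, and SMAD6 and SMAD7 are inhibitory members of the family. Loss of ENG or ACVRL1 function causes hereditary hemorrhagic telangiectasia, and loss of BMPR2 function causes heritable pulmonary arterial hypertension.

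Start-site windows of members in both branches, an inhibitory Smad and a target gene are shown because SMAD proteins bind DNA at short palindromes. Windows of 300 bases, from 250 bases before to 50 bases after the gene start (RefSeq, GRCm38.p6), were found for 26 of the 36 members. Tgfb3, Bmp2, Bmp7, Acvrl1, Tgfbr3, Bambi, Smad2, Smad4, Smad7 and Id1 had no entry. Capitals mark the letters searched, GTCTAGAC (the palindromic SMAD-binding element) or GGCGCC (the GC-rich palindrome bound by SMAD1 and SMAD5). Both motifs read the same on either strand and do not overlap each other.
Smad6, chr9:64022045-64022074, minus strand: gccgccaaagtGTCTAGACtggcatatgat
Bmpr2, chr1:59764162-59764191, plus strand: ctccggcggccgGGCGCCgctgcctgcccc
Tgfbr1, chr4:47352977-47353006, plus strand: ggctggagtaaaGGCGCCcagcggtgaggg
Id2, chr12:25096306-25096335, minus strand: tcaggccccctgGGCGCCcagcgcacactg
Acvr1b, chr15:101174078-101174107, plus strand: gggagggagagaGGCGCCgggggcgcgcgc

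GTCTAGAC was found in the window of Smad6 alone among the 26 members, where it spans the gene start, and in 0.213% of all 32851 windows. GGCGCC was found for 8 of the 26 members (Acvr1b, Bmpr1a, Bmpr2, Id2, Smad5, Smad9, Smurf2 and Tgfbr1), in 9 of their 32 windows, and in 11.9% of all windows. Base composition was not matched between these windows. GENCODE vM21 places the starts of Bmpr2 and Id2 further upstream than RefSeq does, so by that annotation the stretches shown for them lie inside the gene. Bmpr2 belongs to the ACVRL1 branch and Tgfbr1 to the TGFBR branch, so GGCGCC was present in a window of each.

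Foxf1, the targeted gene, was at 213, 285, 296 and 331 TPM (a relative transcript level already divided by transcript length) in C1 to C4, and at 177, 203, 14.04 and 105 TPM in H1 to H4. All 4 values of the endFoxf1+/- group were under the lowest control value (p = 0.0286 by exact permutation, two-sided, which is as small as 4 against 4 libraries allow). Across all tested genes its adjusted p was 0.790 (limma, Benjamini-Hochberg), and the log2 fold change of -1.68 (SE 0.72) became -0.83 without H3 and -0.55 without H3 and H4. Relative to the mean of 20 endothelial markers, the log2 level of H3 lay inside the control range (exact two-sided permutation p = 0.0571, n = 4 against 4). The TPM cover the whole gene and so do not measure the deletion of exon 1 directly. Libraries H3 and H4 stood apart. The geometric mean of 20 endothelial markers, among them Pecam1 and Cdh5, was at 85.0% to 107% of the control level in C1 to C4, at 105% and 109% in H1 and H2, at 5.59% in H3 and at 57.4% in H4. Median correlation with the other libraries was 0.902 for H3, 0.952 for H4 and between 0.980 and 0.985 for the rest. H3 also had 10792.5 summed TPM of 14 myeloid markers (controls 1525 to 5252), 1348 of 14 fibroblast and pericyte markers (controls 84.9 to 156), of which Col3a1, Dcn and Lum made 1273, and 121 of 12 lymphocyte markers (controls 22.2 to 33.8). Rgs5, Notch3, Des, Col1a2 and Tcf21 of the same list were below every control in H3. H4 had 325 summed TPM of fibroblast and pericyte markers. The summed TPM of 12 epithelial markers was 10976, 2609, 1633 and 27041 in H1 to H4, beside 6967 to 32759 in the controls. The highest control was C3, and the other controls reached 10619 at most. In H4 Sftpa1, Sftpb, Ager, Cdh1, Epcam, Krt8 and Nkx2-1 were above every control. Sftpc, Scgb1a1, Krt18, Krt19 and Foxj1 lay within the control range. All 14 myeloid markers had a higher mean in endFoxf1+/-. Their mean log2(TPM + 1) was 4.81, 5.07, 7.78 and 4.43 in H1 to H4, each above the controls (3.23 to 4.34), whereas the summed TPM of H1, H2 and H4 lay within the control range. In H4 Lyz2 made 4476 of the 4818 summed TPM. All 10 erythroid and platelet markers had a lower mean log2(TPM + 1) in endFoxf1+/-. Their summed TPM was 668, 647, 414 and 995 in H1 to H4 beside 967 to 1993 in the controls. Alas2 of this list was above every control in H1 and H2 (4.70 and 6.64 TPM, controls 0.564 to 4.36). All 10 proliferation genes had a higher mean, with 348, 316, 567 and 255 summed TPM beside 234 to 257. In bulk RNA, fewer endothelial cells and less RNA per endothelial cell cannot be told apart.

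None of the members passed the test between endFoxf1+/- and control TECs. In H1 and in H2, 19 members lay within the control range, and the lower group means of the most abundant members rested on H3 and H4. Of the 36 members, 34 reached 1 TPM in at least 4 libraries and entered the limma test on log2(TPM + 1). Inhba and Bmpr1b did not. With Benjamini-Hochberg adjustment over all 14964 tested genes in limma, 0 of the 34 members had an adjusted p under 0.05 (smallest 0.790), as did 0% of all tested genes. No member reached an unadjusted p under 0.05 (5.59% of all tested genes did), and for no member were the 2 groups without overlap (5.04% of all tested genes, 2.73% with endFoxf1+/- higher and 2.31% lower). The group mean was lower in endFoxf1+/- for 25 members and higher for 9, with a median log2 fold change of -0.23, beside 68.0% lower and a median of -0.17 over all tested genes. The split depended on the scaling, which also moved the median of all tested genes, to -0.01 after quantile normalization. It was 18 lower and 16 higher after quantile normalization, 17 and 17 after median-ratio scaling, 18 and 16 without H3, and 9 and 25 without H3 and H4. All tested genes moved in the same way, with 50.8%, 50.9%, 48.4% and 29.0% lower under these settings. Without H3, limma gave 0 members at an adjusted p under 0.05 and 1 (Inhbb, higher) at an unadjusted p under 0.05, beside 7.16% of all tested genes. Without H3 and H4 the counts were 0, beside 0.0137%, and 1 (Inhbb, higher), beside 12.2%. With limma array weights, which down-weight these libraries, they were 0, beside 0.989%, and 4 (Smad5, Inhbb and Tgfbr1 higher, Tgfb1 lower), beside 19.2%.

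Each endFoxf1+/- library was also set against the range of the 4 control libraries. In H1, 19 of the 34 tested members lay within the control range, 2 below and 13 above it. In H2 the same counts were 19, 8 and 7. In H3 only 2 members lay within the range, 28 below and 4 above, and in H4 8 lay within, 17 below and 9 above. As a share of the control mean, the median member was at 112% in H1, 104% in H2, 36.9% in H3 and 89.1% in H4, beside 110%, 109%, 54.3% and 81.0% for the median of all tested genes. In H3 the median member was lower than the median gene, and in the other libraries the medians lay closer together.

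**Figure D1:**
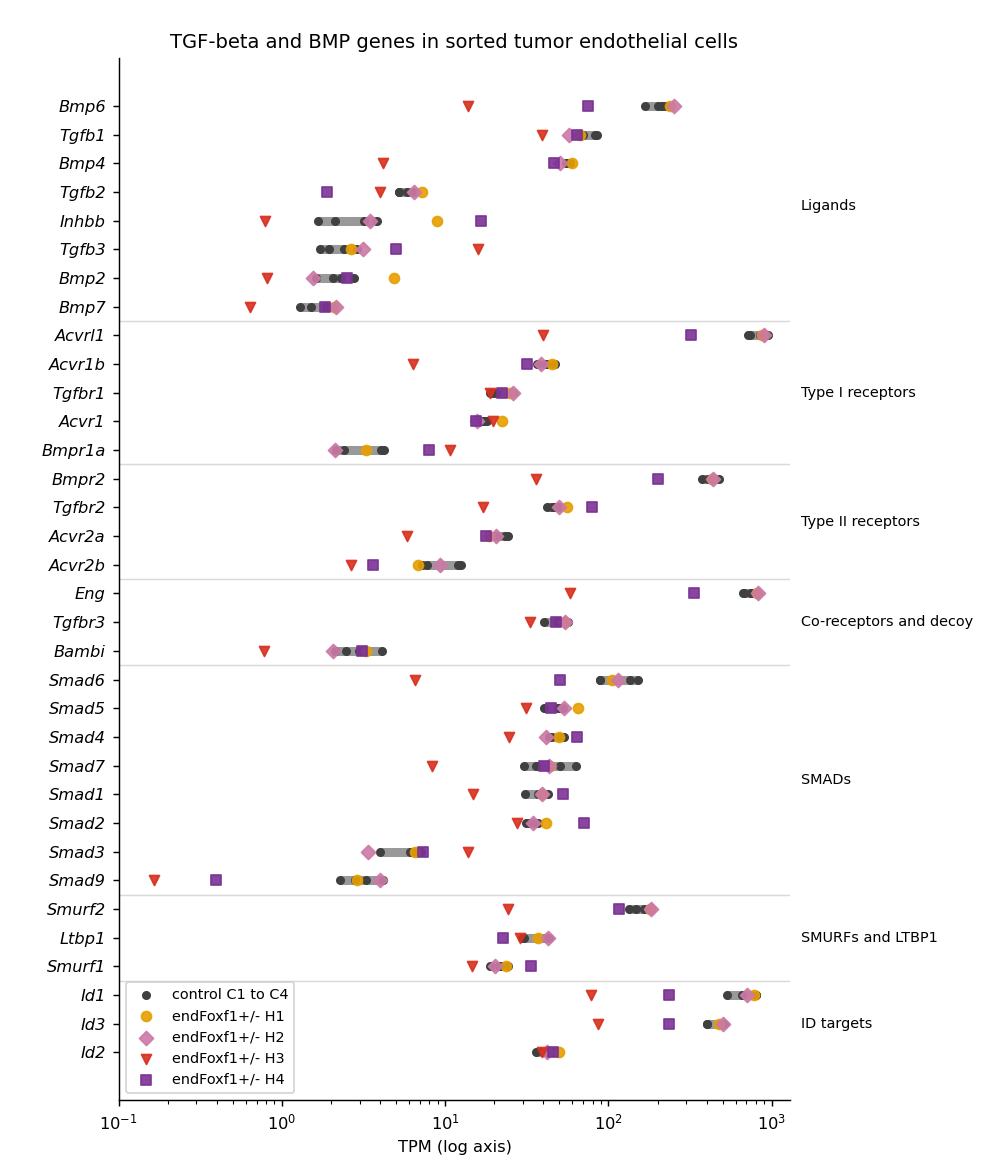
TPM (x axis, log scale) of the 34 tested members in each library, grouped by role and sorted by control mean within a role. Black points and the grey bar show the 4 control libraries and their range. Colored symbols show the single endFoxf1+/- libraries, with H3 (red) below the control range for 28 members and above it for Tgfb3, Bmpr1a, Smad3 and Acvr1.

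In control TECs the genes of the ACVRL1 branch were the most abundant members. Acvrl1 had 811 ± 109 TPM (SD, n = 4), Eng 709 ± 46.2 and Id1 698 ± 130, and the ranges of these neighbours overlapped. Id3 (452 ± 57.5 TPM) and Bmpr2 (417 ± 42.2) came next, below Id1 and with overlapping ranges. Bmp6, Smurf2 and Smad6 had 201, 155 and 116 TPM, again with overlapping neighbours and below Bmpr2. Tgfb1 (76.0 ± 9.50 TPM) and Bmp4 (56.5 ± 1.79) each stood apart from the gene above them. From Bmp4 down to Smad2 (34.1 ± 2.77) the ranges of all neighbours overlapped, through Tgfbr3, Smad5, Smad4, Tgfbr2, Smad7, Acvr1b, Id2, Smad1 and Ltbp1. The ends of this series did not overlap, with Bmp4 at 54.7 to 58.1 TPM and Smad2 at 31.1 to 36.9 TPM. By control mean, 8 members were above 100 TPM, 16 between 10 and 100, 10 between 1 and 10, and 2 below 1, and 11 of the 35 neighbour pairs did not overlap. The coefficient of variation among control libraries was 3.16% to 36.4% for the tested members, with a median of 13.1% (17.6% over all tested genes).

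The ACVRL1 branch was at or slightly above control levels in H1 and H2 and below them in H3 and H4. Acvrl1 (chr15:101128522-101145336 of GRCm38) had 849.7, 716, 731 and 947 TPM in C1 to C4, and 867, 895, 40.0 and 321 TPM in H1 to H4. H1 and H2 lay inside the control range, and H3 and H4 lay below every control library. Eng (chr2:32646595-32682669) had 749, 672, 666 and 749 TPM in the controls and 813, 820.4, 58.1 and 333 TPM in H1 to H4. Bmpr2 (chr1:59763400-59879014) had 408, 417, 371 and 473 TPM in the controls and 431, 435, 36.1 and 201 TPM in H1 to H4. Eng differed from the other receptors in that H1 and H2 were above all controls, and all 3 genes shared the low values of H3 and H4. The log2 fold changes were -1.34 (SE 0.86) for Acvrl1, -1.06 (SE 0.74) for Eng and -1.10 (SE 0.69) for Bmpr2, with an adjusted p of 0.790 for each (limma, Benjamini-Hochberg). Without H3 they were -0.36, -0.22 and -0.31, and without H3 and H4 they were 0.13, 0.21 and 0.06. Exons of Acvrl1 and of Eng overlap another gene on the opposite strand (Gm16031 and Fpgs), and the strand setting of the read counting is not given in the sources used here.

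The receptors of the TGFBR branch had lower TPM than their counterparts in the ACVRL1 branch and did not share one profile across H3 and H4. Tgfbr1 (chr4:47353222-47414931) had 26.1, 20.4, 18.8 and 19.3 TPM in C1 to C4 and 24.9, 26.1, 18.9 and 22.4 TPM in H1 to H4. All 4 endFoxf1+/- libraries fell within the control range, H3 included. Tgfbr2 (chr9:116084293-116175360) had 47.2, 49.9, 42.2 and 45.4 TPM in the controls and 55.8, 49.8, 17.0 and 79.5 TPM in H1 to H4. Tgfbr3 (chr5:107106570-107289629) had 40.4, 48.3, 48.4 and 56.7 TPM in the controls and 54.1, 54.4, 33.0 and 47.7 TPM in H1 to H4. H3 was the lowest library for both, while H4 was the highest library for Tgfbr2 and within the control range for Tgfbr3. The log2 fold changes were 0.12 (SE 0.22), -0.06 (SE 0.41) and -0.05 (SE 0.23), with adjusted p of 0.877, 0.974 and 0.957 (limma, Benjamini-Hochberg). Those of Tgfbr2 and Tgfbr3 turned positive after quantile normalization (0.10 and 0.11) and after median-ratio scaling (0.13 and 0.14). Without H3 the values were 0.21, 0.38 and 0.11.

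**Figure D2:**
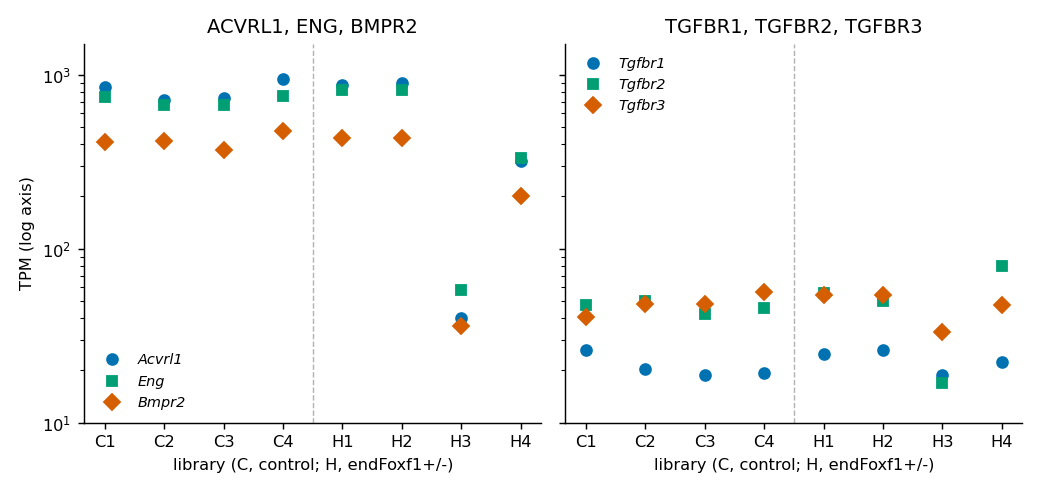
TPM (y axis, log scale) of the receptors and co-receptor of the ACVRL1 branch (left) and of the TGFBR branch (right) in each of the 8 libraries. Each point is 1 library. Left, H3 and H4 lie below all other libraries for each gene. Right, Tgfbr1 stays between 18.8 and 26.1 TPM in all 8.

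Set side by side, the difference between the branches lay within the control range in H1 and H2 and below it in H3 and H4. The mean log2(TPM + 1) of Acvrl1, Eng and Bmpr2 was 9.28 ± 0.13 (SD, n = 4) in control and 8.11 ± 1.85 in endFoxf1+/- libraries, a difference of -1.17. The mean of Tgfbr1, Tgfbr2 and Tgfbr3 was 5.21 ± 0.06 and 5.21 ± 0.46, a difference of 0.00. The ACVRL1 branch minus the TGFBR branch within a library was thus 4.06 ± 0.10 in controls and 3.96, 4.01, 0.96 and 2.63 in H1 to H4. The group difference of -1.17 became -0.53 without H3 and -0.08 without H3 and H4. As a ratio of summed TPM, the ACVRL1 branch exceeded the TGFBR branch by 15.2 to 17.9 times in the controls, by 15.7 and 16.5 times in H1 and H2, by 1.95 times in H3 and by 5.71 times in H4.

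Ratios of matched receptors within a library were lowest in H3 and H4. Acvrl1 over Tgfbr1, the type I receptors, was 32.5 to 49.0 in the controls and 34.9, 34.3, 2.12 and 14.3 in H1 to H4. Bmpr2 over Tgfbr2, the type II receptors, was 8.35 to 10.4 in the controls and 7.73, 8.73, 2.13 and 2.53 in H1 to H4, so that H1 was also below the control range. Eng over Tgfbr3, the co-receptors, was 13.2 to 18.5 in the controls and 15.01, 15.1, 1.76 and 6.98 in H1 to H4. The groups overlapped for each ratio (exact two-sided permutation test on the log2 ratio, n = 4 against 4, p = 0.114, 0.0857 and 0.286). Within the ACVRL1 branch the balance moved less, with Acvrl1 over Eng at 1.07 to 1.26 in the controls, 1.07 and 1.09 in H1 and H2, 0.688 in H3 and 0.964 in H4.

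**Figure D3:**
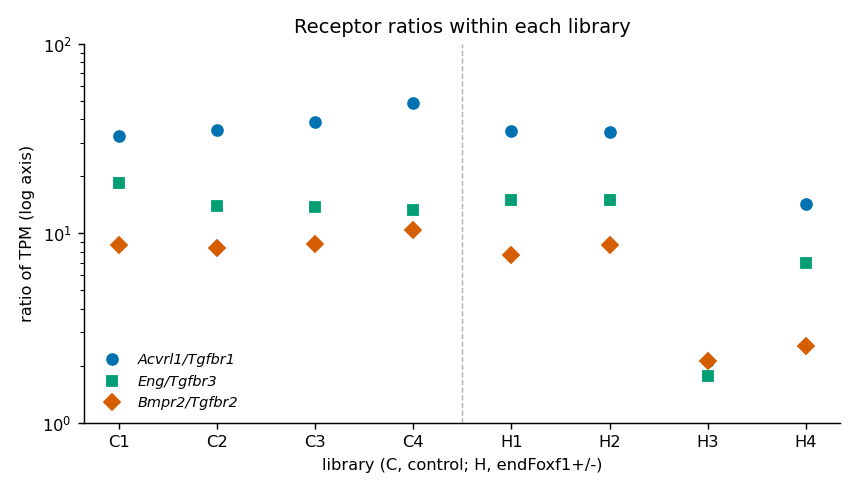
Ratio of TPM (y axis, log scale) of the matched type I receptors, co-receptors and type II receptors in each library. Each point is 1 library. H1 and H2 lie near the controls, while the 3 ratios come together at 1.76 to 2.13 in H3.

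Ligand transcripts were led by Bmp6, a BMP made by endothelial cells, in every library but H3, where Tgfb1 and Tgfb3 were higher. Bmp6 had 224, 211, 199.6 and 167 TPM in C1 to C4 and 238, 251, 13.9 and 74.8 TPM in H1 to H4. H1 and H2 were above all controls and H3 and H4 below all controls (log2 fold change -1.14, SE 0.79, limma with Benjamini-Hochberg adjusted p = 0.790, and 0.29 without H3 and H4). Its exons overlap Txndc5 on the opposite strand. Bmp4 was even across the controls at 54.7 to 58.1 TPM, and had 59.9, 50.8, 4.15 and 46.4 TPM in H1 to H4, so that H3 alone was far below the rest. Tgfb1, the TGF-beta isoform that leukocytes and endothelium both make, had 65.8 to 85.6 TPM in the controls and 67.0, 57.5, 39.4 and 64.4 TPM in H1 to H4. H2, H3 and H4 were below every control and H1 was not (exact two-sided permutation p = 0.0571, n = 4 against 4). Platelets also carry TGF-beta, and the part of the lower erythroid and platelet markers in these values was not tested.

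The other ligand genes were scarce. Tgfb3 had 2.41, 1.71, 2.90 and 1.95 TPM in the controls and 2.65, 3.12, 15.8 and 4.99 TPM in H1 to H4. H2, H3 and H4 were above every control (log2 fold change 0.96, SE 0.46, limma with Benjamini-Hochberg adjusted p = 0.790, 0.48 without H3 and 0.27 without H3 and H4). Inhbb, which encodes the beta B subunit of activins and inhibins, had 3.17, 2.13, 1.67 and 3.84 TPM in the controls and 8.90, 3.45, 0.787 and 16.5 TPM in H1 to H4. It was above all controls in H1 and H4 and below them in H3 (log2 fold change 0.76, SE 0.63, limma with Benjamini-Hochberg adjusted p = 0.797, 1.35 without H3 and 0.25 without H4). Tgfb2 had 5.24 to 6.39 TPM in the controls and 1.89 to 7.26 TPM in endFoxf1+/- libraries, Bmp2 1.62 to 2.76 and 0.810 to 4.88, and Bmp7 1.29 to 2.06 and 0.639 to 2.15. Inhba, the beta A subunit gene, was at 0.252 to 1.12 TPM in the controls and at 1.86, 0.438, 9.999 and 0.718 TPM in H1 to H4. Gdf2 and Bmp10, which encode the ACVRL1 ligands BMP9 and BMP10 and are not members, were listed at 0 in all libraries and at no more than 0.0282 TPM, respectively.

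Of the remaining receptors, Bmpr1a, a type I BMP receptor, was one of the few genes with more TPM in H3 and H4. It had 4.06, 2.16, 4.21 and 2.39 TPM in C1 to C4 and 3.28, 2.11, 10.7 and 7.95 TPM in H1 to H4 (log2 fold change 0.58, SE 0.44, limma with Benjamini-Hochberg adjusted p = 0.797, and -0.17 without H3 and H4). The activin type I receptor Acvr1b had 36.3 to 47.0 TPM in the controls and 45.4, 38.5, 6.37 and 31.9 TPM in H1 to H4. Acvr1 (ALK2) varied little from library to library, at 16.5 to 18.0 TPM in the controls and 15.5 to 22.2 TPM in endFoxf1+/- libraries, and in H3 it was at 114% of the control mean. The activin type II receptors Acvr2a and Acvr2b had 19.9 to 24.3 and 7.18 to 12.5 TPM in the controls. In H1 to H4 Acvr2a had 18.6, 20.5, 5.88 and 17.7 TPM, and Acvr2b 6.82, 9.34, 2.65 and 3.61 TPM. For each of them 3 of 4 endFoxf1+/- libraries were below every control (exact two-sided permutation p = 0.0571 and 0.114, n = 4 against 4). Bambi, a decoy receptor without a kinase domain, had 2.10 to 4.08 TPM in the controls and 0.775 to 3.26 in endFoxf1+/- libraries. Bmpr1b was below 0.2 TPM in all 8 libraries.

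Among the Smad genes the inhibitory Smad6 was the most abundant in control TECs and was low in H3 and H4. Smad6 had 152, 88.5, 88.9 and 135 TPM in C1 to C4 and 105, 115, 6.58 and 50.4 TPM in H1 to H4. H1 and H2 were within the control range and H3 and H4 below it (log2 fold change -1.28, SE 0.76, limma with Benjamini-Hochberg adjusted p = 0.790, -0.41 without H3 and -0.04 without H3 and H4). Smad7, which inhibits both branches, had 63.6, 36.2, 30.4 and 50.8 TPM in the controls and 44.1, 43.3, 8.29 and 40.1 TPM in H1 to H4. Only H3 lay outside the control range (log2 fold change -0.59, SE 0.51, limma with Benjamini-Hochberg adjusted p = 0.797, and -0.03 without H3). Smad6 over Smad7 was 2.39 to 2.92 in the controls and 2.38, 2.65, 0.794 and 1.26 in H1 to H4.

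Of the receptor-activated Smad genes of the BMP side, Smad1 and Smad5 had similar means in the groups. Smad1 had 37.8, 42.8, 37.1 and 30.7 TPM in the controls and 39.05, 39.3, 14.8 and 52.6 TPM in H1 to H4. Smad5 had 51.4, 48.9, 40.3 and 52.4 TPM in the controls and 64.8, 53.4, 31.4 and 44.3 TPM in H1 to H4. For both genes H3 was the lowest library, and the other endFoxf1+/- libraries lay within or above the control range. The log2 fold changes were -0.15 (SE 0.36) and -0.03 (SE 0.25), with adjusted p of 0.911 and 0.979 (limma, Benjamini-Hochberg), and turned to 0.01 and 0.13 after quantile normalization and to 0.22 and 0.16 without H3. Smad9, the scarcest of these genes, had 2.25 to 4.18 TPM in the controls, 2.88 and 3.96 TPM in H1 and H2, and 0.166 and 0.396 TPM in H3 and H4, below every control.

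On the TGF-beta side, Smad2 had 36.9, 35.9, 31.1 and 32.4 TPM in the controls and 41.3, 34.6, 27.4 and 71.0 TPM in H1 to H4. Smad3 had 7.06, 6.32, 4.01 and 6.11 TPM in the controls and 6.57, 3.35, 13.7 and 7.33 TPM in H1 to H4. Smad2 was highest in H4 and Smad3 in H3, the library with the lowest endothelial level. The log2 fold changes were 0.26 (SE 0.29) and 0.24 (SE 0.38), with adjusted p of 0.819 and 0.862 (limma, Benjamini-Hochberg). They became -0.00 for Smad2 without H4 and -0.06 for Smad3 without H3. Smad4 had 43.5 to 53.1 TPM in the controls and 49.4, 41.5, 24.6 and 63.8 TPM in H1 to H4.

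Smurf2, a ubiquitin ligase that acts on SMADs and their receptors, had 134 to 173 TPM in the controls and 181, 183, 24.2 and 115 TPM in H1 to H4. Its relative Smurf1 had 18.7 to 24.4 TPM and 23.5, 20.2, 14.6 and 33.4 TPM. H3 was below all controls for both, and H4 was low for Smurf2 and high for Smurf1. Ltbp1, which binds latent TGF-beta in the matrix, had 29.6 to 43.2 TPM in the controls and 37.0, 42.9, 28.8 and 22.6 TPM in H1 to H4.

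The ID genes encode inhibitors of DNA binding, and Id2 had another profile across the libraries than Id1 and Id3. Id1 had 797, 533, 654 and 806 TPM in C1 to C4 and 779.8, 709, 78.3 and 235 TPM in H1 to H4. Id3 had 510.4, 402, 403 and 492 TPM in the controls and 477, 501.9, 86.4 and 233 TPM in H1 to H4. For both, H1 and H2 were within the control range and H3 and H4 below it. Id2 had 35.8, 39.8, 45.8 and 40.05 TPM in the controls and 49.9, 42.0, 39.0 and 45.5 TPM in H1 to H4, and H3 was inside the control range. The log2 fold changes were -1.11 (SE 0.66) for Id1, -0.76 (SE 0.51) for Id3 and 0.12 (SE 0.19) for Id2, with adjusted p of 0.790, 0.790 and 0.861 (limma, Benjamini-Hochberg). Without H3 and H4 those of Id1 and Id3 were 0.11 and 0.12. Id1 over Acvrl1, a target over its receptor, was 0.745 to 0.938 in the controls and 0.899, 0.792, 1.96 and 0.733 in H1 to H4.

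Because H3 and H4 had low endothelial marker levels, the members were set against these markers. In H3 the TPM of the 20 endothelial markers lay at 3.69% to 7.50% of their control means. Acvrl1 (4.93%), Smad9 (5.33%), Smad6 (5.67%), Bmp6 (6.92%) and Bmp4 (7.34%) lay in that range, and the other 29 tested members lay above it. Eng (8.20%), Bmpr2 (8.66%) and Id1 (11.2%) were the next lowest, while Tgfbr1 (89.1%), Id2 (96.5%) and Acvr1 (114%) kept near the control mean and Smad3 (234%), Bmpr1a (333%) and Tgfb3 (704%) were above it. In H4 the markers lay at 19.0% to 119.7%. Of the tested members 24 were in that range, Smad9 (12.7%) was below it, and Bmpr1a, Inhbb, Smad1, Smad2, Smad3, Smad4, Smurf1, Tgfb3 and Tgfbr2 were above it.

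**Figure D4:**
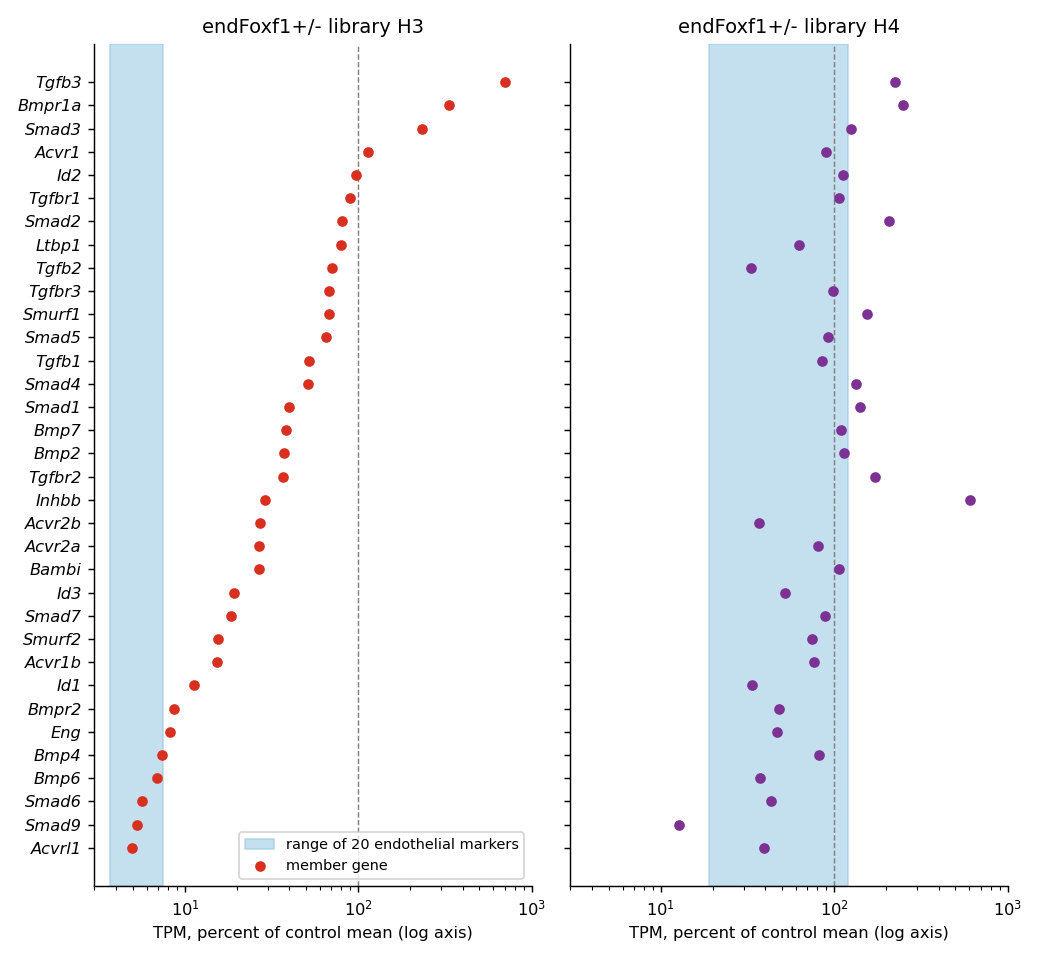
TPM of the 34 tested members in H3 (left) and H4 (right) as a percent of the control mean (x axis, log scale), sorted by the value in H3. Each point is 1 gene, the blue band is the range of 20 endothelial markers in the same library, and the dashed line is the control mean. In H3 the band holds 5 members and the others lie to its right, and in H4 it holds 24.

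On the log2 scale relative to the mean of the 20 markers, the ACVRL1 branch was at 0.50 ± 0.10 (SD, n = 4) in controls and 0.52 ± 0.30 in endFoxf1+/- libraries, a difference of 0.02 that turned to -0.095 without H3 and was 0.034 without H3 and H4. It was 0.55 and 0.51 in H1 and H2, 0.87 in H3 and 0.14 in H4, so H3 was above and H4 below the control libraries. The TGFBR branch relative to the markers was at -3.57 ± 0.10 in controls and at -3.41, -3.50, -0.10 and -2.48 in H1 to H4. For this branch the difference of 1.20 became 0.44 without H3 and 0.11 without H3 and H4. Relative to the markers the groups did not overlap for 2 of the 34 tested members, Bmp7 and Smad5, both higher in endFoxf1+/- (exact two-sided permutation p = 0.0286 each, n = 4 against 4). The same held for 8.99% of all tested genes, 8.94% in that direction and 0.0468% in the other. The value of Smad5 was -3.17 ± 0.02 in controls and -2.81, -3.14, 0.40 and -2.48 in H1 to H4, and that of Bmp7 was -7.37 ± 0.10 and -7.22, -7.25, -3.91 and -6.47. H2 lay within 0.01 of the nearest control for Smad5, and most of each difference was in H3 and H4. No member was apart in this way with Pecam1 in place of the 20 markers. Bmp7 was near the floor, at 1.29 to 2.06 TPM in the controls and 0.639 to 2.15 TPM in endFoxf1+/- libraries. Its relative difference of 1.16 was no larger than the 1.19 of Gdf2, listed at 0 in all libraries. The markers themselves differed by -1.19, so the relative value of such a scarce gene mostly follows the markers.

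The wider pathway was followed in 103 further genes of the same signaling system, of which 70 were tested. None had an adjusted p under 0.05 in limma with Benjamini-Hochberg adjustment (smallest 0.790), and 12 had an unadjusted p under 0.05, 11 higher and 1 lower, beside 2.82% and 2.77% of all tested genes. Lower and higher group means were split 41 to 29, with a median log2 fold change of -0.11 (-0.17 over all tested genes). After quantile normalization the split was 31 to 39. All 6 tested BMP target genes (Atoh8, Gata2, Hey1, Hey2, Msx1 and Tmem100) had a lower mean in endFoxf1+/- libraries (median -1.06, beside 68.0% of all tested genes lower), and none of them reached an unadjusted p under 0.05. Without H3, 4 of 6 were lower with a median of -0.34 (48.4% of all tested genes lower). In that setting 1 of them, lower, had an unadjusted p under 0.05, beside 7.16% of all tested genes. Without H3 and H4, 4 of 6 were lower with a median of -0.04 (29.0%). Of 13 TGF-beta target genes, 6 had a higher and 7 a lower mean, 5 of them at an unadjusted p under 0.05. The 20 intracellular regulators had 1 such gene, the 11 genes of latency and activation 3, the 8 antagonists 1, the 4 further receptors 2 and the 8 further ligands 0.

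The groups did not overlap for 7 genes in the higher and 1 in the lower direction, beside 2.73% and 2.31% of all tested genes, and 7 of them also had an unadjusted p under 0.05. Cdkn2b, which encodes the cell cycle inhibitor p15INK4b, had 28.2, 49.6, 78.2 and 44.8 TPM in C1 to C4 and 15.4, 15.03, 1.66 and 4.19 TPM in H1 to H4. It was lower in all 4 endFoxf1+/- libraries, H1 and H2 included (log2 fold change -2.63, SE 0.60, limma with Benjamini-Hochberg adjusted p = 0.790, -2.12 without H3 and -1.57 without H3 and H4). Snai2, a transcription factor of epithelial-mesenchymal transition, had 9.53, 9.91, 8.83 and 9.81 TPM in the controls and 15.8, 15.9, 12.8 and 16 TPM in H1 to H4. Unlike most genes here its values were close in all 4 endFoxf1+/- libraries (log2 fold change 0.61, SE 0.21, limma with Benjamini-Hochberg adjusted p = 0.790). Itgav, the alpha V integrin subunit that takes part in the activation of latent TGF-beta, had 18.7 to 23.3 TPM in the controls and 25.3, 25.3, 37.8 and 45.6 TPM in H1 to H4 (log2 fold change 0.62, and 0.27 without H3 and H4). Fstl1, a secreted glycoprotein of the follistatin-like family, was named after its values were seen, as the remaining gene whose groups did not overlap, and had an unadjusted p above 0.05. It had 76.7, 52.1, 46.9 and 68.3 TPM in the controls and 81.1, 78.8, 82.5 and 84.3 TPM in H1 to H4 (log2 fold change 0.44, SE 0.22, limma with Benjamini-Hochberg adjusted p = 0.790, and 0.41 without H3 and H4). Exons of Itgav and of Fn1 overlap another gene on the opposite strand.

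Fn1 (fibronectin) had 32.8 to 52.3 TPM in the controls and 135, 92.5, 811 and 265 TPM in H1 to H4, with a log2 fold change of 2.43 (1.41 without H3 and H4). Dcn (decorin, a proteoglycan that binds TGF-beta) had 7.64 to 22.7 TPM and 47.2, 36.6, 533 and 82.6 TPM (2.64, and 1.48 without H3 and H4), and Tgfbi, a secreted TGF-beta-induced protein, 6.70 to 13.03 TPM and 23.0, 19.3, 204 and 25.3 TPM (1.76, and 0.89 without them). Each was highest in H3 and next highest in H4. Cd109, a TGF-beta co-receptor, had 0.608 to 1.46 TPM in the controls and 2.89, 1.88, 13.2 and 5.61 TPM in H1 to H4 (log2 fold change 1.48, and 0.72 without H3 and H4). The summed fibroblast and pericyte markers, a list of 14 genes that includes Dcn, none of them at 0 in all libraries, followed the same order, with 206, 134, 1348 and 325 TPM in H1 to H4 beside 84.9 to 156 in the controls, and 8 of its 14 genes had a higher mean in endFoxf1+/- and 6 a lower one. Col3a1, Dcn and Lum alone made 143, 96.4, 1273 and 239.9 TPM of these sums in H1 to H4 and 25.7 to 73.2 in the controls, so the sum is not independent of Dcn. The pericyte gene Rgs5 went the other way, with 10.7 to 18.9 TPM in the controls and 3.71, 3.73, 0.602 and 6.66 TPM in H1 to H4. The 14 myeloid markers all had a higher mean, with 2851, 2163, 10792.5 and 4818 summed TPM. The part of either cell type in these values was not tested.

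**Figure D5:**
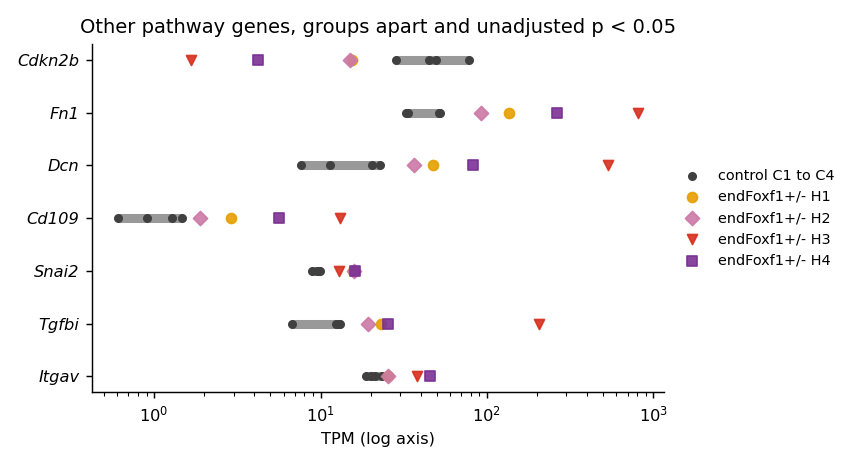
TPM (x axis, log scale) of the 7 other pathway genes whose groups did not overlap at an unadjusted p under 0.05. Black points and the grey bar show the 4 control libraries and their range, and colored symbols the single endFoxf1+/- libraries. Fn1, Dcn, Tgfbi and Cd109 reach their highest values in H3, and the endFoxf1+/- libraries of Snai2 lie between 12.8 and 16 TPM.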

How the data were processed

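RNA-seq libraries of CD45-CD31+ cells sorted from LLC tumors were analysed (4 control, 4 endFoxf1+/-, grouped by the genotype in the labels, day 21). For each library the authors deposited TPM per gene symbol. Per the labels, the submitters' processing notes name TopHat, Cufflinks, Subread and DESeq2 and the builds GRCm38 and mm10, and the annotation and strand setting are not given in the sources used here. TPM keep no read numbers, so the depth is unknown, and errors are spreads over libraries. The series' design text gives 4 mice per group, as many as the libraries here, whereas a figure legend of the study gives a smaller number for this RNA-seq. Which libraries that covers is not given in the sources used here, and the labels name no animals.

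TPM were used as deposited, as log2(TPM + 1), in R 4.3.3 with limma 3.58.1 (lmFit, eBayes with trend). The test covered the 14964 genes at 1 TPM or more in 4 or more libraries, and the Benjamini-Hochberg threshold was 0.05. Fold changes on this scale understate those of low genes. Single values were compared by exact two-sided permutation over all 70 assignments. The authors' DESeq2 step needs counts and was not repeated.

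The members and gene lists were chosen with earlier results of these data known. Named in full were the receptors of both branches, Smad1, Smad5, Smad6, Smad7, Id1 to Id3, members with non-overlapping groups or an unadjusted p under 0.05, and the 5 largest fold changes in each direction. Of the other pathway genes, those meeting both criteria were named, and Fstl1, which meets the first alone, was added after its values were seen. Other settings tried were pseudocounts of 0.1 and 5, a filter at 5 TPM and none, quantile and median-ratio scaling, no trend, array weights, an endothelial covariate, and libraries left out. Coordinates are from GENCODE vM21 (GRCm38). Exons of 11 of the 36 members overlap those of another gene.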

Additional observations from a re-analysis of the deposited data

Results flagged for a closer look

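In 68 sets of 4 libraries (34 members in 2 groups), the gap between the lowest or highest library and its neighbour was divided by the range of the set and compared with Dixon's critical value for 4 values. Chance alone passes this limit in about 1 in 20 sets, and 4 of the 68 did. All 4 were in the endFoxf1+/- group with H3 as the lowest library, and no control set was among them. The ratio was 0.942 for Smad7 (8.29 TPM in H3), 0.898 for Bmp4 (4.15 TPM), 0.875 for Acvr2a (5.88 TPM) and 0.842 for Bmp7 (0.639 TPM). Acvrl1, Eng, Bmpr2 and Smad6 did not pass it because H4 was also low and closed the gap. The endothelial markers of H3 were at 5.59% of the control level, and their part in these 4 values was not tested.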

How the results depend on the processing

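No member had an adjusted p under 0.05 under any of the 18 alternatives. No paired analysis was possible because the labels give the groups no shared replicate numbers, and replicates were numbered only in accession order. Members at an unadjusted p under 0.05 numbered 1 after quantile normalization, 1 after median-ratio scaling, 4 with array weights, 1 with the endothelial covariate and 1 without H3 and H4, of 34 tested, beside 7.02%, 6.76%, 19.2%, 7.16% and 12.2% of all tested genes, and 0 to 3 when single libraries were left out (2.83% to 10.9%). Members whose groups did not overlap numbered 1 after quantile normalization (6.19% of all tested genes), 6 without H3 and H4 (24.5%), and 0 to 3 when single libraries were left out (6.36% to 10.2%). Relative to endothelial markers the 2 such members became 0 with Pecam1 alone (4.41% of all tested genes), 5 with Cdh5 alone (12.9%), and 2 to 7 when single libraries were left out (7 without H2, beside 20.9%). The difference between the branches was -0.078 without H3 and H4 and -1.55 to -0.53 when single libraries were left out, with H3 at the -0.53 end. Among the other pathway genes, 3 (Fn1, Cdkn2b and Snai2) had an adjusted p under 0.05 with array weights, which gave H3 a weight of 0.0643 and H4 of 0.178, beside 0.989% of all tested genes. Those at an unadjusted p under 0.05 numbered 12 with the settings used above, beside 5.59% of all tested genes. They numbered 7 after median-ratio scaling (6.76%) and 5 to 23 when single libraries were left out. The counts were 5 without C4 (3.17%), 7 without C3 (3.2%) and 23 without H2 (10.9%), so the share over all tested genes also moved.

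For 26 genes named with a fold change (Foxf1 and Fstl1 not among them), 464 alternative values were computed. The direction was kept in 417 of them, and 12 genes kept it under every alternative run. Among these 12 are the 7 other pathway genes, which were named because their groups did not overlap. Leaving out libraries could not reverse them, so their kept direction adds no support. When single libraries were left out, Foxf1 ranged from -2.08 to -0.83 and Fstl1 from 0.33 to 0.56. With array weights the log2 fold change turned to 0.043 for Acvrl1, 0.19 for Bmp6, 0.13 for Eng, 0.11 for Id1, 0.078 for Id3, 0.067 for Smad1, -0.067 for Smad3, 0.31 for Smad5, 0.043 for Smad7, 0.20 for Tgfbr2 and 0.12 for Tgfbr3. Without H3 and H4 it turned to 0.13 for Acvrl1, 0.29 for Bmp6, -0.17 for Bmpr1a, 0.058 for Bmpr2, 0.21 for Eng, 0.11 for Id1, 0.12 for Id3, 0.085 for Smad1, -0.24 for Smad3, 0.29 for Smad5, 0.0074 for Smad7, 0.19 for Tgfbr2 and 0.17 for Tgfbr3. With the endothelial covariate it turned to 0.25 for Smad1, -0.12 for Smad3, 0.21 for Smad5, 0.071 for Smad7, 0.42 for Tgfbr2 and 0.14 for Tgfbr3. Quantile normalization turned it to 0.0075 for Smad1, 0.13 for Smad5, 0.10 for Tgfbr2 and 0.11 for Tgfbr3, and median-ratio scaling to 0.042, 0.16, 0.13 and 0.14. When single libraries were left out it ranged from -0.36 to 0.22 for Smad1, -0.00051 to 0.45 for Smad2, -0.060 to 0.53 for Smad3, -0.18 to 0.16 for Smad5, -0.34 to 0.38 for Tgfbr2 and -0.13 to 0.11 for Tgfbr3. The cause was not tested. TPM keep no depth, so counting error could not be set beside these values.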
